A study of Mus musculus with 42 samples.

Results

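The samples described here were the 8 baseline libraries of distal colon epithelium from Mtg16-/- and WT mice, chosen by segment, genotype and the absence of any treatment from the 42 samples of the series. Mtg16-/- mice are homozygous for a null allele of *Mtg16* (gene symbol *Cbfa2t3*) and were bred from heterozygous parents, so every cell of the animal carries the allele. The WT mice were littermate-matched, all animals were C57/BL6 and at least 8 weeks old, and neither genotype had been given colitis or tumour-inducing agents. Each group held 4 libraries, and the RNA came from crypts that a chelating solution had loosened from the last 5 cm of the colon. Replicates 1 and 2 of each genotype carried the request number 5094 and replicates 3 and 4 the number 4149, and the sources used here do not say what that number marks.

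MTG16 is a transcriptional corepressor that binds no DNA itself and is brought to promoters by transcription factors, among them the E proteins, class I basic helix-loop-helix (bHLH) factors that bind the E-box sequence CANNTG together with class II bHLH partners. Class II factors direct the secretory lineage of the gut: ATOH1 commits a progenitor to that lineage, and NEUROG3, followed by NEUROD1, directs it to the enteroendocrine fate. Enteroendocrine cells are rare hormone-secreting cells that store peptides and serotonin in granules and release them by calcium-triggered exocytosis, while goblet cells secrete the mucus of the colon.

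All values are normalised read counts, scaled by the authors over these 8 libraries, and are given for replicates 1 to 4 in that order. Differences are log2(normalised count + 1) differences of Mtg16-/- minus WT ± SE from a limma model with the request number as a block, adjusted over all genes tested and called at an adjusted p under 0.05. The reads assigned to genes ranged from 35346459 to 68919445 per library, and 13831 genes had a mean of at least 10 and were tested. In bulk epithelium, fewer cells of a type and less RNA per cell cannot be told apart.

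The library labelled distal Mtg16-/- replicate 2 went against its label, since its levels of segment genes were those of proximal colon. *Hoxd13*, a homeobox gene of the hindmost gut, stood at 4455, 5535, 6654 and 3576 in WT and 4180, 0, 5854 and 5748 in Mtg16-/-, so that this library alone held none. *Hoxb13*, another posterior homeobox gene, stood at 19967, 18592, 18307 and 19745 in WT and 19551, 245, 17409 and 23426 in Mtg16-/-, again lowest in that library. *Atp12a*, the colonic proton-potassium pump, stood at 57014, 42441, 31783 and 37977 in WT and 64450, 127, 52255 and 50505 in Mtg16-/-. For genes of the proximal side the order was turned, and the same library was the highest. *Hoxb6*, an anterior homeobox gene, stood at 64.2, 59.05, 46.6 and 38.5 in WT and 47.5, 2883, 27.5 and 41.7 in Mtg16-/-. *Abca12*, a lipid transporter gene, stood at 1.31, 1.16, 4.54 and 22.9 in WT and 22.02, 9746, 1.89 and 8.99 in Mtg16-/-. In the 4 proximal libraries of the same colony, which were scaled in a table of their own, the levels ran from 13.4 to 34.7 for *Hoxb13*, from 1.03 to 37.9 for *Atp12a*, from 2587 to 3334 for *Hoxb6* and from 9407 to 11519 for *Abca12*. Among the WT proximal libraries of both colonies, scaled in another table, the levels reached 259 for *Hoxb13* and 139 for *Atp12a*. The segment genes in this paragraph were chosen after their values were seen.

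**Figure D1:**
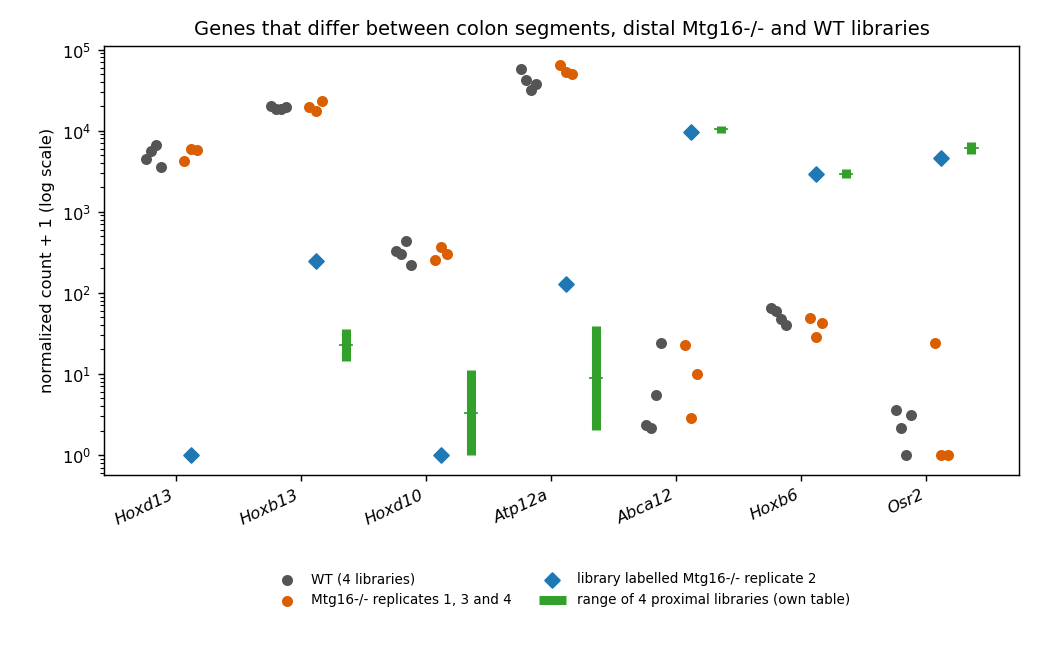
Normalised read count + 1 on a log axis for 7 genes that differ between colon segments. Grey points are the 4 WT and orange points the other 3 Mtg16-/- distal libraries, the blue diamond is the library labelled Mtg16-/- replicate 2, and green bars span the 4 proximal libraries of the same colony, which were scaled separately (Hoxd13 has no bar). The diamond lies away from the other 7 distal libraries for each gene and nearer to the proximal bar where there is one.

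A score over more genes separated the same library. From the WT libraries of a second colony, the 100 genes most raised in distal and the 100 most raised in proximal colon were taken, and the mean log2 level of the first set minus that of the second was -4.995 in the library labelled replicate 2, against 5.21 to 6.08 in the other 7 distal libraries and -6.06 to -5.46 in the 4 proximal libraries of the same colony, none of which chose the genes. Its correlation with the other distal libraries was 0.908 to 0.923, that among the other 7 was 0.974 to 0.986, and that with the 4 proximal libraries was 0.978 to 0.983, all across genes, which are not independent replicates. The first principal component, with 52% of the variance, separated it from the rest. Whether it was dissected, labelled or deposited as another segment was not tested, and values below come from all 8 libraries unless the 7 that leave it out are named.

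Other facts moved with single libraries. Replicate 2 of both genotypes had *Xist*, the transcript of the inactive X chromosome, at 3.47 and 7.33 against 18902 to 36088 in the other 6 libraries, and the Y-linked gene *Ddx3y* at 1645 and 1724 against 0, so these 2 libraries differed in sex from the other 6. The summed T cell markers stood at 5824 in the library labelled replicate 2 and at 727 to 2333 in the others, and the summed myeloid and neutrophil markers at 4445 and at 11559 to 17649. Epithelial markers (8 of 8 in the table) summed to 732277 to 806882 in WT and 693971 to 835735 in Mtg16-/- libraries.

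*Cbfa2t3* itself was read first. The gene (GRCm38, chr8:122625141-122699109, - strand) stood at 1809, 1666, 1027 and 1555 in WT and 694, 1095, 424 and 688 in Mtg16-/-. Mtg16-/- replicates 1, 3 and 4 lay below every WT library, and the library labelled replicate 2 lay above WT replicate 3. The difference was -1.11 ± 0.22 with an adjusted p of 0.18 with all 8 libraries and -1.263 ± 0.20 with an adjusted p of 0.04997 in the 7, and within requests it was -1.22 in request 4149 and -0.99 in request 5094. An exact two-sided permutation test over the 70 groupings of the 8 libraries gave p = 0.0571, where the smallest possible is 0.0286. Those groupings ignore the request, and with libraries exchanged only within requests (36 groupings) p was 0.0556, where the smallest possible is 0.0556. A count over the whole gene does not say which exons the reads came from, so reads that remain in Mtg16-/- libraries do not test the deleted part.

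With all 8 libraries 8 genes rose (0.0578% of 13831 tested) and 0 fell (0%), while 468 were higher and 230 lower at an unadjusted p under 0.05. On the recovered reads edgeR called 7 higher and 0 lower, and DESeq2 176 and 34. Leaving out WT replicate 1, WT replicate 3, Mtg16-/- replicate 1 or Mtg16-/- replicate 4 left 1 called gene, *Insrr*, and leaving out WT replicate 2, WT replicate 4 or Mtg16-/- replicate 3 gave 3 to 5, of which 2 to 5 were among the 8. The genotypes did not overlap for 357 genes that were higher in Mtg16-/- (2.58%) and for 162 that were lower (1.17%). Several of the 7 genes described here encode parts of secretory or excitable cells. *Insrr*, which encodes the insulin receptor-related receptor, an alkali-sensing receptor tyrosine kinase, stood at 57.7, 56.7, 36.9 and 55.2 in WT and 950.3, 1500, 602 and 998 in Mtg16-/-. Its difference was the largest among the called genes, at 4.22 ± 0.24 (adjusted p = 0.00393), and it was 4.07 in request 4149 and 4.36 in request 5094. *Pex5l*, which encodes TRIP8b, a subunit that tunes pacemaker (HCN) channels, stood at 44.6, 38.2, 60.9 and 58.3 in WT and 332, 423, 215 and 322 in Mtg16-/-. The difference was 2.64 ± 0.26 (adjusted p = 0.0356), with the library labelled replicate 2 highest.

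A further 3 of the called genes belong to vesicle release. *Chgb* encodes chromogranin B, a core protein of the dense granules of endocrine cells, and stood at 6345, 5110, 4913 and 4857 in WT and 15125, 18001, 11177 and 15348 in Mtg16-/-. It rose by 1.48 ± 0.12 (adjusted p = 0.0156), and within requests by 1.42 in request 4149 and 1.53 in request 5094. *Syt13*, an atypical synaptotagmin of endocrine precursors, stood at 118, 96.1, 122 and 106 in WT and 445, 297, 442 and 544 in Mtg16-/-. It rose by 1.93 ± 0.18 (adjusted p = 0.031), with the library labelled replicate 2 lowest of the 4 but above every WT library. *Pclo*, which encodes the active-zone scaffold piccolo, stood at 40.6, 32.4, 34.98 and 43.7 in WT and 159, 128, 131 and 173 in Mtg16-/-, a rise of 1.93 ± 0.20 (adjusted p = 0.0359). *Cacna1h*, a low-voltage-activated T-type calcium channel, stood at 190.1, 149, 145 and 147 in WT and 547, 598, 422 and 456 in Mtg16-/-, a rise of 1.67 ± 0.13 (adjusted p = 0.00935), and its WT replicate 1 was above the other 3 WT libraries. *Dmpk*, the myotonic dystrophy protein kinase gene, stood at 684, 537, 981 and 679 in WT and 2831, 1815, 2626 and 2379 in Mtg16-/-, a rise of 1.76 ± 0.19 (adjusted p = 0.039). All of these genes passed in the 7 libraries too, with differences of 4.05 for *Insrr*, 2.46 for *Pex5l*, 1.42 for *Chgb*, 2.08 for *Syt13*, 1.99 for *Pclo*, 1.63 for *Cacna1h* and 1.86 for *Dmpk*. None of these 7 genes had any overlap between genotypes, so each difference had to be positive in both requests, which is no further evidence. The library labelled replicate 2 is 1 of the 2 Mtg16-/- libraries of request 5094, and 4 of the genes were also higher in proximal WT (scaled in its own table) than in any distal WT library, with 479 to 489.5 for *Insrr*, 111 to 211 for *Pex5l*, 7612 to 9535 for *Chgb* and 787 to 1215 for *Cacna1h*. The level of *Cacna1h* in that library was below those of proximal WT. Proximal WT levels were 97.04 to 97.2 for *Syt13*, 37.2 to 43.8 for *Pclo* and 208 to 275 for *Dmpk*.

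**Figure D2:**
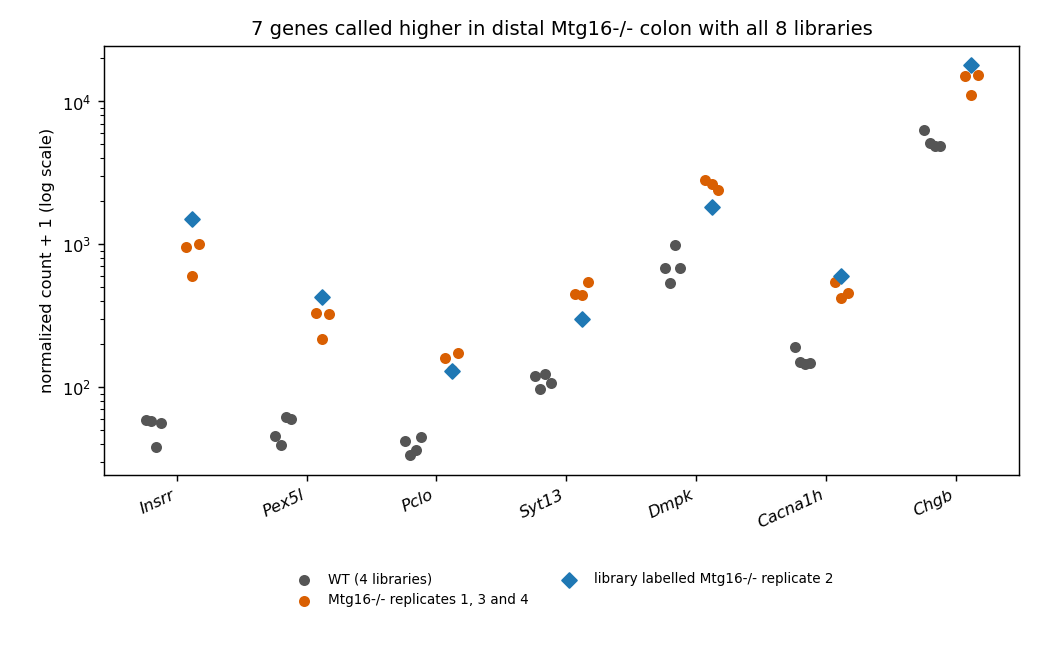
Normalised read count + 1 on a log axis for 7 of the genes called with all 8 libraries, ordered by the size of the difference. Grey points are WT, orange points Mtg16-/- replicates 1, 3 and 4, and blue diamonds the library labelled Mtg16-/- replicate 2, and in each gene all 4 Mtg16-/- points lie above the 4 WT points.

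Just outside the threshold stood *Neurod1* and *Rimbp2*, with an adjusted p of 0.0505, then *Cadps*, *Cacna1a*, *Neurl1a*, *Map3k15*, *Prox1*, *Gnao1*, *Tuba1a* and *Chga* with 0.0509. In the 7 libraries all 10 of these passed. The smallest adjusted p of a lower gene with all 8 libraries was 0.0644.

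Leaving out the library labelled replicate 2 raised the counts to 99 genes higher (0.716%) and 7 lower (0.0506%), with 587 and 322 at an unadjusted p under 0.05, and all 8 genes called there were among the 99. Of the 99, 41 belonged to the 5 gene lists of enteroendocrine function described next and 47 to any pathway list. The lists were written with earlier results of these data known, so their counts describe those genes and are not independent evidence of a direction. Over all genes tested the median difference was -0.01 with 8 and with 7 libraries. Genes named below because they passed only in the 7 libraries were chosen after their values were seen.

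Of the enteroendocrine transcription factors more were higher than lower in Mtg16-/- libraries. Of 23 tested, 0 passed upward and 0 downward with all 8 libraries, against 9 and 0 in the 7. With all 8 libraries 17 were higher and 0 lower at an unadjusted p under 0.05, the median difference was 1.06 against -0.01 over all genes, and the medians within requests were 1.29 in 4149 and 0.91 in 5094. *Neurog3*, the factor that commits progenitors to the endocrine fate, stood at 81.3, 108, 95.2 and 60.4 in WT and 594, 177, 314 and 535 in Mtg16-/-. All 4 Mtg16-/- libraries were above WT, but the library labelled replicate 2 was far below the other 3, with an adjusted p of 0.168 for the 8 (2.10 ± 0.41) and 0.0131 for the 7 (2.51 ± 0.26). *Neurod1*, which acts after *Neurog3*, stood at 117, 132, 126 and 130.2 in WT and 443, 269, 413 and 432 in Mtg16-/-. Its difference was 1.59 ± 0.18 with all 8 and 1.76 ± 0.13 in the 7 (adjusted p = 0.00599).

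Further factors of the endocrine programme passed in the 7 libraries. *Insm1*, a zinc finger repressor required for endocrine maturation, stood at 374, 349.7, 284 and 271 in WT and 1139, 564, 739 and 1115 in Mtg16-/- and passed in the 7 libraries (1.69 ± 0.15, adjusted p = 0.00876). *Prox1*, a homeobox factor of endocrine and tuft cells, stood at 52.4, 63.7, 69.3 and 65.6 in WT and 244, 156, 204 and 324 in Mtg16-/- (1.97 ± 0.21 in the 7, adjusted p = 0.0136). *Nkx2-2*, a homeobox factor for endocrine subtype choice, stood at 85.2, 76.4, 88.8 and 103 in WT and 357, 146, 254 and 309.9 in Mtg16-/- (1.78 ± 0.19 in the 7, adjusted p = 0.0136). With all 8 libraries the differences were 1.43 for *Insm1*, 1.83 for *Prox1* and 1.52 for *Nkx2-2*, and none passed. In each of these the library labelled replicate 2 was the lowest of the Mtg16-/- group and still above WT. Proximal WT libraries, scaled separately, had *Prox1* at 128 to 148, also above every distal WT library. They had *Insm1* at 240 to 272 and *Nkx2-2* at 55.8 to 67.8. *Pax6*, *Myt1*, *Fev* and *Etv1* also passed in the 7 libraries, with differences of 1.67, 1.70, 1.41 and 1.29. *Fev*, a factor of serotonin-producing cells, had a difference of 1.23 with all 8 libraries, and *Etv1*, where the groups overlapped in the library labelled replicate 2, one of 1.04.

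Because bHLH factors act at E-boxes, the 250 bases before the start site are shown for *Neurog3*, *Neurod1* and *Chgb*, the first as the head of the endocrine cascade, the second as its bHLH successor and the third as the granule gene that was called with all 8 libraries. They are RefSeq sequences on GRCm38.p6, at chr10:62132840-62133089, + strand, chr2:79456637-79456886, - strand and chr2:132781392-132781641, + strand, written 5′ to 3′ on the strand of the gene, and capitals mark each match to CANNTG, which reads the same motif on both strands.
Neurog3: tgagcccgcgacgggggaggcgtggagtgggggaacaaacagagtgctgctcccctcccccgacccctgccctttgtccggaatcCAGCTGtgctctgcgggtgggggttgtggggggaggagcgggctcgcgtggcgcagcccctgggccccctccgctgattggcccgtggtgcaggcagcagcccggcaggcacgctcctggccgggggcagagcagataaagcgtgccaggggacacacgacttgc
Neurod1: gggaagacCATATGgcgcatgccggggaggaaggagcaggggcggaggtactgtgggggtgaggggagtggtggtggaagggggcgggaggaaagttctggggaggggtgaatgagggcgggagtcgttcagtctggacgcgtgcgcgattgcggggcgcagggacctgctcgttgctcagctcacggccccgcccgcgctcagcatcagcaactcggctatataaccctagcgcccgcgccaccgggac
Chgb: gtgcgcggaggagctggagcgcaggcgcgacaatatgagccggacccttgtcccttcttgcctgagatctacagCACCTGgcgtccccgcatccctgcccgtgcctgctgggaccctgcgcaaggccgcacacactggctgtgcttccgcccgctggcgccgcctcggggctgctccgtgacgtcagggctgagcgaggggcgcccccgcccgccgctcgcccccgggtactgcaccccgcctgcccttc
Each of the 3 windows held 1 match, and the same window of *Atoh1*, whose sequence is not shown, held 0. Among all 27025 promoters of that length 66% held at least 1, and among the 10968 tested genes with a promoter entry the share was 57.8%. Of the 99 genes higher in the 7 libraries 70 had an entry and 47 of those (67.1%) held a match, and of the 7 lower genes 6 had an entry and 2 held one. A match to so short a motif is a description of the letters and not a binding site.

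Among the hormone genes the library labelled replicate 2 was high for some and low for others. Of 14 tested, 0 passed upward and 0 downward with all 8 libraries, against 4 and 0 in the 7, and with all 8 libraries 6 were higher and 0 lower at an unadjusted p under 0.05. The median difference was 1.04. *Pyy*, the peptide YY of L cells, stood at 3770, 3384, 4312 and 3969 in WT and 10903, 2159, 10129 and 12861 in Mtg16-/-. In the library labelled replicate 2 it was below every WT library and close to the proximal Mtg16-/- levels of 1738 to 2263 (own table), while the other 3 were above, and the difference was 0.95 ± 0.48 (adjusted p = 0.991) with 8 libraries and 1.52 ± 0.10 (adjusted p = 0.00599) with 7. *Insl5*, an insulin-like peptide of distal L cells, stood at 3645, 2759, 4115 and 4535 in WT and 8158, 543, 7354 and 8621 in Mtg16-/-. The library labelled replicate 2 was again below every WT library, the proximal Mtg16-/- libraries had 115 to 279, and the difference was 0.15 ± 0.78 with all 8 libraries (adjusted p = 0.991) and 1.07 ± 0.14 in the 7 (adjusted p = 0.0283).

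*Tph1*, the rate-limiting enzyme of serotonin synthesis in enterochromaffin cells, stood at 566, 397, 532 and 422 in WT and 1330, 2218, 1766 and 1164 in Mtg16-/-. The difference was 1.73 ± 0.22 (adjusted p = 0.0589) with all 8 and 1.55 ± 0.19 (adjusted p = 0.0255) with 7. Proximal WT libraries, scaled separately, had *Tph1* at 914 to 1354, also above every distal WT library. *Sct*, secretin, stood at 110.1, 75.3, 129.6 and 160.4 in WT and 283, 1275, 315 and 327 in Mtg16-/-, so every Mtg16-/- library was above WT. The library labelled replicate 2 was near the proximal Mtg16-/- levels of 1390 to 1473, and proximal WT libraries had *Sct* at 1472 to 1620. The difference of *Sct* was 1.93 ± 0.52 (adjusted p = 0.4) with all 8 and 1.34 ± 0.20 (adjusted p = 0.0405) with 7. *Gcg*, preproglucagon, the precursor of the incretin of L cells, stood at 1790, 1630, 1920 and 3213 in WT and 4340, 4974, 4054 and 4818 in Mtg16-/-. It did not pass with 8 libraries (1.14 ± 0.19, adjusted p = 0.123) or 7 (1.04 ± 0.20, adjusted p = 0.0836), although its groups did not overlap. Proximal WT libraries had *Gcg* at 3241 to 3380, also above every distal WT library. *Ppy*, pancreatic polypeptide, which is in no list, stood at 274, 255, 309.7 and 277 in WT and 812, 49.2, 743 and 604 in Mtg16-/- and passed in the 7 libraries (1.36 ± 0.15, adjusted p = 0.0135) but not with all 8 (0.40 ± 0.80).

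Granins and the enzymes that process prohormones were higher in most of their members. Of 16 tested, 1 passed upward and 0 downward with all 8 libraries, against 8 and 0 in the 7, the median was 1.07, and all 16 differences were positive in the 7 libraries. *Chga*, chromogranin A, stood at 2593, 2105, 2345 and 2657 in WT and 6754, 10042, 5040 and 6800 in Mtg16-/-. It missed the threshold with all 8 libraries (1.52 ± 0.19, adjusted p = 0.0509) and passed with 7 (1.35 ± 0.14, adjusted p = 0.0131). Proximal WT libraries, scaled separately, had *Chga* at 4059 to 5163, also above every distal WT library. *Scg2*, secretogranin II, stood at 262, 268, 216 and 219 in WT and 756, 46.05, 588 and 787 in Mtg16-/-, and the library labelled replicate 2 lay below all others. With all 8 libraries its difference was 0.57 ± 0.85. Without that library *Scg2* rose by 1.59 ± 0.14 (adjusted p = 0.00743), and proximal Mtg16-/- libraries had it at 24.6 to 52.9. *Scg3*, which tethers granins to the granule membrane, stood at 65.5, 68.3, 71.3 and 86.4 in WT and 199, 151, 165 and 251 in Mtg16-/- (1.44 ± 0.21 in the 7, adjusted p = 0.0344). *Cpe*, the carboxypeptidase that trims prohormones, and *Pcsk1n*, an inhibitor of the prohormone convertase, passed in the 7 libraries at 1.32 and 1.31, as did the granule protein gene *Ptprn* at 1.24 and the calcium sensor gene *Scgn* at 1.261.

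Genes of regulated exocytosis changed in part of the list. Of 29 tested, 2 passed upward and 0 downward with all 8 libraries, against 9 and 0 in the 7, with 16 higher and 2 lower at an unadjusted p under 0.05 and a median of 0.89. *Rimbp2*, an active-zone protein that ties calcium channels to vesicles, stood at 259.6, 232, 244 and 216 in WT and 760.3, 515, 881 and 667 in Mtg16-/-. *Cadps*, which primes dense-core vesicles, stood at 66.9, 46.3, 51.2 and 57.3 in WT and 155, 146, 174 and 174 in Mtg16-/-. Both were without overlap and passed in the 7 libraries, at 1.69 ± 0.14 and 1.59 ± 0.20, against 1.54 ± 0.18 and 1.54 ± 0.18 with all 8. *Myrip*, which links granules to actin, stood at 27.5, 27.8, 31.8 and 26.04 in WT and 249, 708, 133 and 226 in Mtg16-/-. It showed its highest level in the library labelled replicate 2, near the proximal Mtg16-/- levels of 577 to 697, and rose by 2.78 ± 0.26 without it (adjusted p = 0.0106), against a difference of 3.21 ± 0.42 with it. *Snap25*, the SNARE protein of synapses, and *Unc13a*, a vesicle-priming factor, passed in the 7 libraries at 1.51 and 1.61. *Syp*, synaptophysin, a vesicle membrane protein used as a mark of enteroendocrine cells, stood at 155, 132, 120.5 and 86.4 in WT and 184, 187, 177 and 199 in Mtg16-/- and had an adjusted p of 0.506 (0.37 in the 7), although its groups did not overlap.

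Channels and receptors of excitable enteroendocrine cells had the highest median of these lists. Of 23 tested, 1 passed upward and 0 downward with all 8 libraries, against 11 and 0 in the 7, and the median was 1.17 (1.29 in the 7). *Cacna1a*, the P/Q-type calcium channel, stood at 163, 158, 211 and 154 in WT and 401, 373, 379 and 379 in Mtg16-/-, a narrow spread in both genotypes, with a difference of 1.17 ± 0.14 (adjusted p = 0.0509) with 8 and 1.17 ± 0.16 (adjusted p = 0.0283) with 7 libraries. *Kcnh6*, a voltage-gated potassium channel, stood at 85.2, 81.05, 86.8 and 62.5 in WT and 374, 202, 305 and 425 in Mtg16-/- (2.23 ± 0.20 in the 7, adjusted p = 0.00743, and 1.99 with all 8). The sulfonylurea receptor gene *Abcc8* stood at 127, 98.4, 95.2 and 121 in WT and 284, 452, 256 and 262 in Mtg16-/- (1.29 ± 0.17 in the 7, adjusted p = 0.0283, and 1.47 with all 8). All 3 genes were above WT in each of the 4 Mtg16-/- libraries, but proximal WT libraries (own table) had *Abcc8* at 408 to 409.6 and *Cacna1a* at 223 to 313, also above distal WT, and *Kcnh6* at 51.7 to 64.4. *Gpr119*, a lipid receptor of L cells, and *Olfr78*, an olfactory receptor that responds to short-chain fatty acids, passed in the 7 libraries at 1.62 and 1.24, and in the library labelled replicate 2 the first lay within and the second below the WT range. *Sstr5*, a somatostatin receptor, stood at 32.8, 37.05, 22.7 and 28.1 in WT and 112, 83.7, 87.2 and 109 in Mtg16-/- and passed in the 7 at 1.81 ± 0.22, against 1.68 ± 0.22 with all 8.

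Markers of enteric neurons moved with these lists. The summed level of the 10 markers present in the table (of 13) was 233 to 334 in WT and 525 to 772 in Mtg16-/-, and 1 of the 6 tested, *Nefm*, passed in the 7 libraries at 1.56 ± 0.21. The defining neuron markers *Chrna3* and *Vip* were not analysed here, and the sum of the 3 enteric glia markers present in the table (of 8, with 1 tested) was 27.8 to 31.2 in WT and 17.1 to 29.3 in Mtg16-/- libraries. The part of neurons in the results was not tested. Within requests the medians of the other 4 lists were 0.93 and 1.29 for hormones, 1.22 and 1.07 for granins, 0.87 and 0.62 for exocytosis and 1.49 and 1.28 for excitability, in request 4149 and 5094 in turn.

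**Figure D3:**
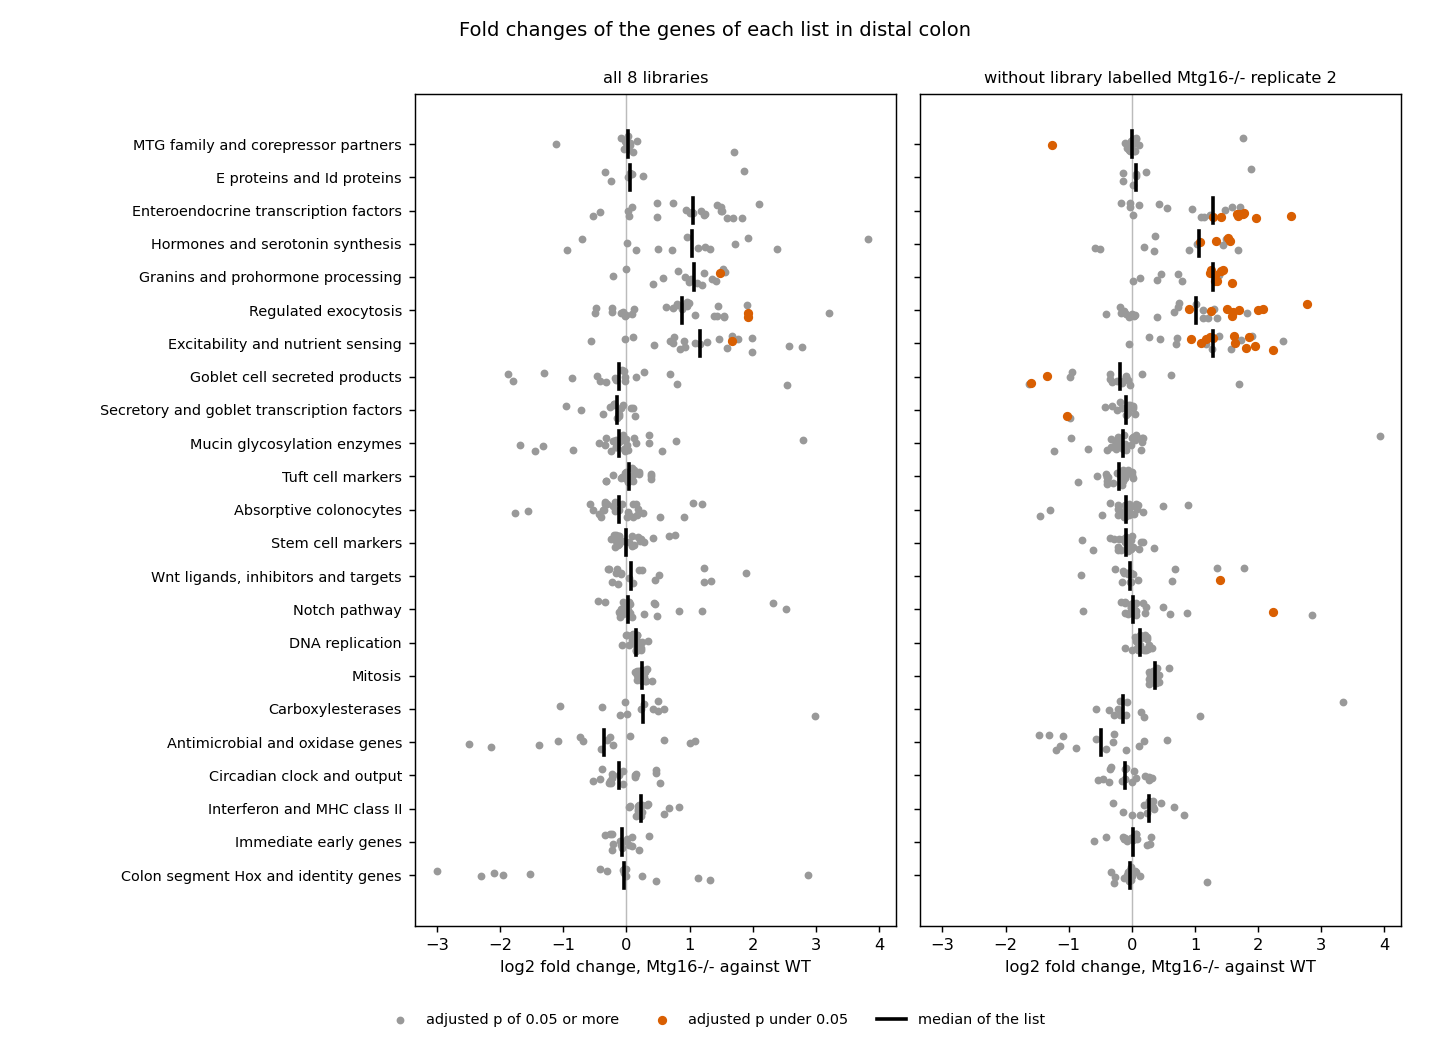
Differences between genotypes on the log2 scale for each tested gene of 23 lists, with all 8 libraries (left) and without the library labelled Mtg16-/- replicate 2 (right). Points are genes, orange where the adjusted p was under 0.05, and black bars are list medians, which for the 5 enteroendocrine lists lie between 0.89 and 1.17 on the left and between 1.01 and 1.29 on the right.

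Genes of goblet cells had smaller differences, in both directions. Of 18 secreted products tested, 0 passed upward and 0 downward with all 8 libraries, against 0 and 2 in the 7, with a median of -0.12 with all 8 libraries and -0.19 in the 7. *Zg16*, a lectin of the mucus layer that binds Gram-positive bacteria, stood at 104297, 86656, 99397 and 166438 in WT and 39466, 43234, 43217 and 55077 in Mtg16-/-. Every Mtg16-/- library, the one labelled replicate 2 included, was below every WT library, with a difference of -1.30 ± 0.18 (adjusted p = 0.0664) for the 8 and -1.35 ± 0.19 (adjusted p = 0.0344) for the 7. Proximal WT libraries, scaled in their own table, had it at 46962 to 78696, also below every distal WT library, and proximal Mtg16-/- libraries at 35574 to 50256. *Muc1*, a membrane mucin, stood at 1061, 1043, 2187 and 2601 in WT and 294, 149.7, 1194 and 644 in Mtg16-/-. Its groups overlapped, since levels were higher in request 4149 in both genotypes, and with request as a block it fell by 1.60 ± 0.21 in the 7 libraries (adjusted p = 0.0283), against a difference of -1.88 ± 0.30 with all 8 (adjusted p = 0.104). *Clca1*, a secreted metalloprotease of mucus, stood at 166966, 169930, 178321 and 255555 in WT and 92308, 119234, 81034 and 131908 in Mtg16-/-, with no overlap and an adjusted p of 0.317 with 8 and 0.119 with 7 libraries.

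Other goblet products did not pass, and 1 of them had the opposite sign without overlap. *Tff3*, the trefoil peptide of goblet cells, stood at 32817, 28629, 33021 and 38548 in WT and 50636, 58636, 47803 and 56252 in Mtg16-/-, higher in every Mtg16-/- library than in any WT library, with a difference of 0.68 ± 0.12 (adjusted p = 0.123) with 8 and 0.61 ± 0.11 (adjusted p = 0.0677) with 7 libraries. *Fcgbp*, a structural mucus protein, stood at 498019, 479392, 314887 and 460520 in WT and 596602, 536904, 285284 and 571478 in Mtg16-/- (0.15 ± 0.27), and *Agr2*, which folds mucins, at 41851, 46172, 56581 and 51169 in WT and 47874, 43860, 48285 and 50122 in Mtg16-/- (-0.03 ± 0.09). The genotypes overlapped for both genes. Muc2, the main gel-forming mucin, was not analysed here.

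Among secretory and goblet transcription factors, of 15 tested, 0 passed upward and 0 downward with all 8 libraries, against 0 and 1 in the 7. *Atoh1*, the factor that commits cells to the secretory lineage, stood at 4889, 4290, 2840 and 4606 in WT and 2069, 2665, 1730 and 2001 in Mtg16-/-. Each Mtg16-/- library was below each WT library, the difference was -0.96 ± 0.16 (adjusted p = 0.123) with 8 libraries and -1.03 ± 0.17 (adjusted p = 0.04997) with 7, and within requests it was -0.96 in request 4149 and -0.96 in request 5094. *Spdef*, which drives goblet maturation, stood at 2668, 2766, 2232 and 3632 in WT and 2974, 6273, 1876 and 2473 in Mtg16-/-, and *Gfi1*, a repressor that holds secretory cells off the endocrine fate, at 698, 618, 418 and 1313 in WT and 373, 721, 276 and 438 in Mtg16-/-. Neither passed, and the difference of *Spdef* was 0.13 with 8 and -0.19 with 7 libraries, that of *Gfi1* -0.71 and -0.98. *Ern2*, the goblet cell sensor of unfolded proteins, stood at 5057, 4893, 4582 and 4930 in WT and 4433, 3567, 3178 and 3974 in Mtg16-/-, all Mtg16-/- below all WT, with an adjusted p of 0.408. Of 29 mucin glycosylation enzymes 0 passed in either fit, with 1 higher and 4 lower at an unadjusted p under 0.05 for the 8, and the median was -0.12. *B3galt2*, a galactosyltransferase gene, stood at 228, 254, 155 and 296 in WT and 78.8, 52.3, 83.4 and 137 in Mtg16-/-, without overlap but with an adjusted p of 0.239.

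The 5 lower genes with the smallest p and no overlap were *Ceacam2*, *Zg16*, *Krt23*, *Atoh1* and *Igfbp4*, and none passed with all 8 libraries. *Ceacam2*, a cell adhesion gene, stood at 275, 324, 419.8 and 498 in WT and 161, 137, 228 and 261 in Mtg16-/- (-0.95 ± 0.13, adjusted p = 0.0644), and it passed in the 7 (adjusted p = 0.0442). The keratin gene *Krt23* stood at 392, 359, 374 and 474 in WT and 133, 143, 209.3 and 269 in Mtg16-/- (-1.13 ± 0.18, adjusted p = 0.101, and 0.0717 in the 7). *Igfbp4*, an insulin-like growth factor binding protein, stood at 203, 196, 245 and 208 in WT and 126, 113, 125 and 134 in Mtg16-/-, with a narrow spread in both groups (-0.77 ± 0.13, adjusted p = 0.123, and 0.0991 in the 7).

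Of the 7 genes that fell in the 7 libraries, those with the largest differences were in a pair of neighbouring imprinted genes on chromosome 12. *Dlk1*, a non-canonical Notch ligand expressed from the paternal allele, stood at 106, 53.3, 432 and 476 in WT and 5.79, 25.1, 5.68 and 8.18 in Mtg16-/-. The WT levels differed between requests, but each Mtg16-/- library was below each WT library, and the difference was -4.19 ± 0.76 (adjusted p = 0.141) with 8 and -4.91 ± 0.52 (adjusted p = 0.0135) with 7 libraries. *Meg3*, the long non-coding RNA of the maternal allele, stood at 83.9, 55.6, 238 and 275 in WT and 19.7, 161, 15.2 and 12.3 in Mtg16-/-. The library labelled replicate 2 lay within the WT range, where proximal Mtg16-/- libraries had 46.96 to 56.9 and proximal WT libraries 194 to 246, and the difference was -2.19 ± 0.92 (adjusted p = 0.985) with it and -3.18 ± 0.49 (adjusted p = 0.0454) without.

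Partners of MTG16 mostly had small differences. Of 16 genes of the MTG family and its corepressor partners, *Cbfa2t3* alone passed, and in the 7 libraries only. The paralogue *Cbfa2t2* (MTGR1) stood at 1114, 1034, 934 and 991 in WT and 1012, 974, 1057 and 1105 in Mtg16-/-. *Runx1t1* (MTG8), the other paralogue, stood at 23.6, 9.26, 14.2 and 14.6 in WT and 48.7, 42.9, 40.7 and 71.95 in Mtg16-/-, all Mtg16-/- above all WT at low counts, with an adjusted p of 0.193 with 8 and 0.143 with 7 libraries. Among the 7 E protein and Id genes 0 passed and 1 had an unadjusted p under 0.05. The E protein genes *Tcf3* and *Tcf12* had differences of 0.06 and 0.09, and *Tcf4* stood at 1795, 1696, 1589 and 1734 in WT and 1340, 873, 1622 and 1745 in Mtg16-/-. *Id4*, an inhibitor of bHLH factors, stood at 256, 239.7, 108 and 227 in WT and 1035, 911, 351 and 817 in Mtg16-/-, without overlap and with a difference of 1.87 ± 0.31 (adjusted p = 0.123, and 0.0801 in the 7).

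Of the 25 Notch genes 0 passed with all 8 libraries and 1 with 7. That gene, *Neurl1a*, a ubiquitin ligase gene, stood at 52.4, 26.6, 38.9 and 55.2 in WT and 189, 227, 176 and 263 in Mtg16-/- (2.24 ± 0.30 in the 7, adjusted p = 0.0283). *Dll3*, a Delta-like gene of neuroendocrine cells, stood at 10.5, 15.1, 11.7 and 11.5 in WT and 155, 46.05, 34.1 and 126 in Mtg16-/-, without overlap, and had an adjusted p of 0.189 with 8 and 0.0647 with 7. Of 18 Wnt genes tested, *Cxxc4*, a Dishevelled-binding inhibitor, passed in the 7 libraries only (74.7, 48.6, 66.1 and 63.5 in WT and 163, 100.5, 168 and 173 in Mtg16-/-, 1.40 ± 0.20, adjusted p = 0.0357). *Wif1*, a secreted Wnt inhibitor, stood at 17.04, 12.7, 14.9 and 18.8 in WT and 48.7, 196, 31.3 and 45.8 in Mtg16-/-, with the library labelled replicate 2 far above the other 3 (adjusted p = 0.44).

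Of the 22 stem cell markers 0 passed in either fit (at an unadjusted p under 0.05, 0 with 8 libraries and 3 lower with 7), and the median was -0.000626 with 8 and -0.09 with 7 libraries. *Lgr5*, the receptor that marks crypt base stem cells, stood at 328, 237, 404 and 269.7 in WT and 391, 339, 230.2 and 457 in Mtg16-/-, and *Ascl2*, its bHLH regulator, at 289.7, 307, 300 and 397 in WT and 241, 378, 277 and 252 in Mtg16-/-. The genotypes overlapped for both, with differences of 0.18 ± 0.26 and -0.18 ± 0.19 with 8 libraries and 0.18 ± 0.29 and -0.35 ± 0.14 with 7. Among the 20 tuft cell markers tested 0 passed and 0 had an unadjusted p under 0.05, and 12 were higher with all 8 libraries but 2 with 7. *Dclk1*, a tuft cell kinase, stood at 249, 250.1, 393 and 345 in WT and 199, 523, 226 and 474 in Mtg16-/- and *Trpm5*, the taste channel of tuft cells, at 190.1, 189.9, 161 and 227 in WT and 137, 348, 87.2 and 254 in Mtg16-/-, with the highest Mtg16-/- level of each in the library labelled replicate 2. Of the 29 absorptive colonocyte genes 0 passed, with 1 higher and 1 lower at an unadjusted p under 0.05. *Guca2b*, uroguanylin, stood at 267, 314, 308 and 298 in WT and 652, 919, 472 and 509 in Mtg16-/-, without overlap (adjusted p = 0.141, and 0.0527 in the 7). Proximal WT libraries, scaled separately, had *Guca2b* at 825 to 1013, also above every distal WT library.

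Cell cycle genes had small positive differences, none of which passed. All 22 mitosis genes and 23 of 25 DNA replication genes had a positive difference with all 8 libraries, with medians of 0.25 and 0.14, and 0 of either list had an unadjusted p under 0.05. The mitosis median was 0.53 in request 4149 and -0.03 in request 5094, so it was not of one sign within requests. *Top2a*, the topoisomerase of dividing cells, stood at 6922, 8148, 10928 and 4862 in WT and 8664, 7874, 13442 and 7220 in Mtg16-/-, with overlapping ranges. The remaining lists (carboxylesterases, antimicrobial and oxidase genes, clock genes, interferon and MHC class II genes, immediate early genes, segment genes) had 0 called genes in either fit. Within them, *Ces1c*, a carboxylesterase gene, stood at 39.3, 129.7, 384 and 102 in WT and 1380, 335, 1090 and 1625 in Mtg16-/- (2.99 ± 0.62, adjusted p = 0.195), with overlap in the library labelled replicate 2. *Reg3b*, a C-type lectin of the antimicrobial response, stood at 157133 in that library and at 57.7 to 2416 in the other 7.

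The 23 genes that the study labelled for this comparison were chosen on these samples, so their counts are not independent evidence. With all 8 libraries 5 of them rose and 0 fell, all from the 8 called genes, and 18 were above WT in every Mtg16-/- library and 3 below, where over all genes the shares without overlap were 2.58% above and 1.17% below. In the 7 libraries 15 rose, and 1, *Atoh1*, fell.

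Genes near *Cbfa2t3* on chromosome 8 were looked at because a null allele is inherited with its neighbours. Of 37 tested genes within 1 Mb, *Cbfa2t3* itself left out, 8 (21.6%) had an unadjusted p under 0.05, 6 of them lower, and of 99 within 5 Mb 16 (16.2%) had, against 5.05% over all genes. In the 7 libraries the shares were 16.2%, 15.2% and 6.57%. *Aprt*, an enzyme of adenine salvage, had a difference of -0.38 ± 0.07, *Galns*, a lysosomal sulfatase gene, one of -0.55 ± 0.11, and *Klhdc4*, a kelch domain gene, one of -0.79 ± 0.14. None of these passed, with an adjusted p of 0.146, 0.161 and 0.141 with all 8 and 0.114, 0.123 and 0.111 in the 7. They were picked from the 6 lower genes, and the 2 higher ones within 1 Mb, *Acsf3* and *Vps9d1*, had differences of 0.27 and 0.20. *Agt*, angiotensinogen, 1.90 Mb away, stood at 148, 137, 148 and 169.8 in WT and 428, 379.9, 325 and 622 in Mtg16-/- (1.498 ± 0.21, adjusted p = 0.0644), and it passed in the 7 libraries (1.53 ± 0.23, adjusted p = 0.0398). In distal colon of T/T mice, homozygous for a point mutation of the same gene, the differences of *Aprt*, *Galns* and *Klhdc4* were 0.03, -0.04 and -0.05. Those of *Acsf3* and *Vps9d1* were 0.07 and 0.27, and that of *Agt* was 1.28. In T/T 2 of 36 genes within 1 Mb (5.56%) and 7 of 97 within 5 Mb (7.22%) had an unadjusted p under 0.05, against 4.65% over all genes. Effects of the allele on its neighbours and of sequence carried along with it cannot be told apart here.

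**Figure D4:**
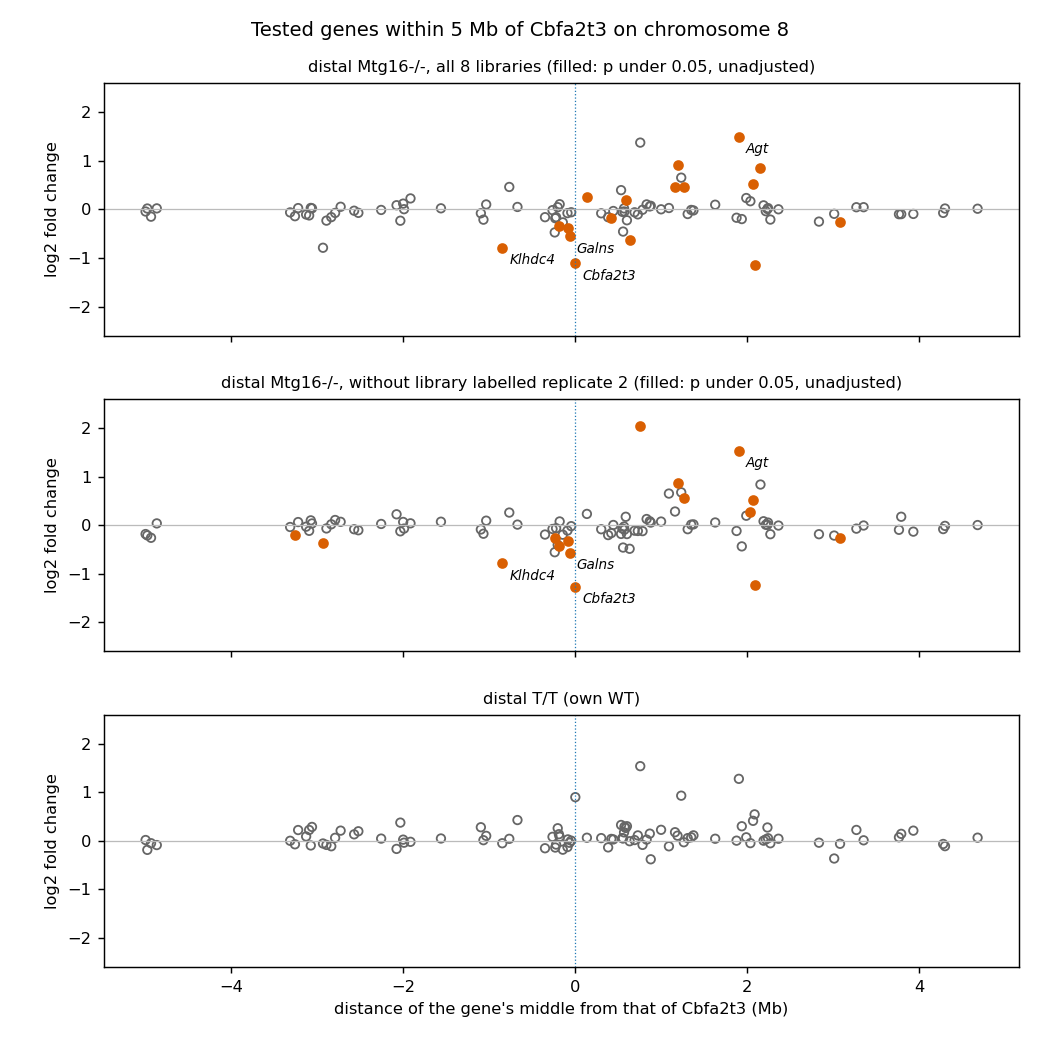
Difference between genotypes on the log2 scale for tested genes within 5 Mb of Cbfa2t3, by distance in Mb of the gene's middle from that of Cbfa2t3, with all 8 libraries, without the library labelled Mtg16-/- replicate 2, and in distal T/T colon against its own WT. Filled orange points in the upper 2 panels had an unadjusted p under 0.05 (16 and 15 of 99 besides Cbfa2t3), and the third panel marks none.

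The requests differed in few genes, and the genotype difference was not shown to depend on them. For the request itself 15 genes passed (0.108%), 6 higher and 9 lower in 5094. For the interaction of genotype and request 0 genes passed (0%), with 346 at an unadjusted p under 0.05 and a smallest adjusted p of 0.295. With 2 libraries per genotype in each request, 1 of them the library labelled replicate 2, the interaction could show only large differences.

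The second *Mtg16* mutation gave a comparison in the same segment. T/T mice carry a point mutation that impairs the binding of E proteins, and 7 libraries of distal T/T and its own WT, with no library shared, were fitted in the same way. In distal T/T colon 5 genes rose (0.0369% of 13535) and 0 fell (0%): *Insrr*, *Dmpk*, *Agt*, *Ces1c* and *Pamr1*. *Insrr* stood at 32.4 to 43.1 in WT and 278 to 442 in T/T, a difference of 3.17 against 4.22 in Mtg16-/-. *Cbfa2t3* was at 937 to 1040 in WT and 1509 to 2196 in T/T, which is the opposite direction to Mtg16-/-. That T/T difference of 0.90 did not pass (adjusted p = 0.253).

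For the enteroendocrine lists the T/T medians were positive, at 0.32 for transcription factors, 0.29 for hormones, 0.48 for granins, 0.32 for exocytosis and 0.53 for excitability, with 0 genes called in any of them. Of the 99 genes higher in the 7 null-colony libraries 95 were tested in T/T, and 94 of these had a positive difference there and 4 were called. Their median was 0.64 in T/T against 1.59 in Mtg16-/-. Over all genes tested in T/T 0.0369% were called higher, and over the 13442 tested in both colonies the T/T median was -0.01. The share of positive T/T differences over all genes was not counted. *Neurog3* had a T/T difference of 1.01, *Chgb* one of 0.52, *Neurod1* one of 0.18 and *Dlk1* one of -2.42. The 99 genes were picked on the Mtg16-/- difference, so their median there is a description, and the difference between the mutations has its own test.

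In that test of the Mtg16-/- minus the T/T difference, 0 of 13442 genes passed in either direction with all 8 libraries (0%), with 347 at an unadjusted p under 0.05. In the 7 libraries 1 gene was higher and 1 lower (0.00744% each). *Pyy* differed by 1.11 ± 0.13 (adjusted p = 0.0059), and *Cbfa2t3* by -2.16 ± 0.24 (adjusted p = 0.0059). *Neurod1*, at 1.58 ± 0.33 in the 7 libraries, did not pass (adjusted p = 0.628).

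**Figure D5:**
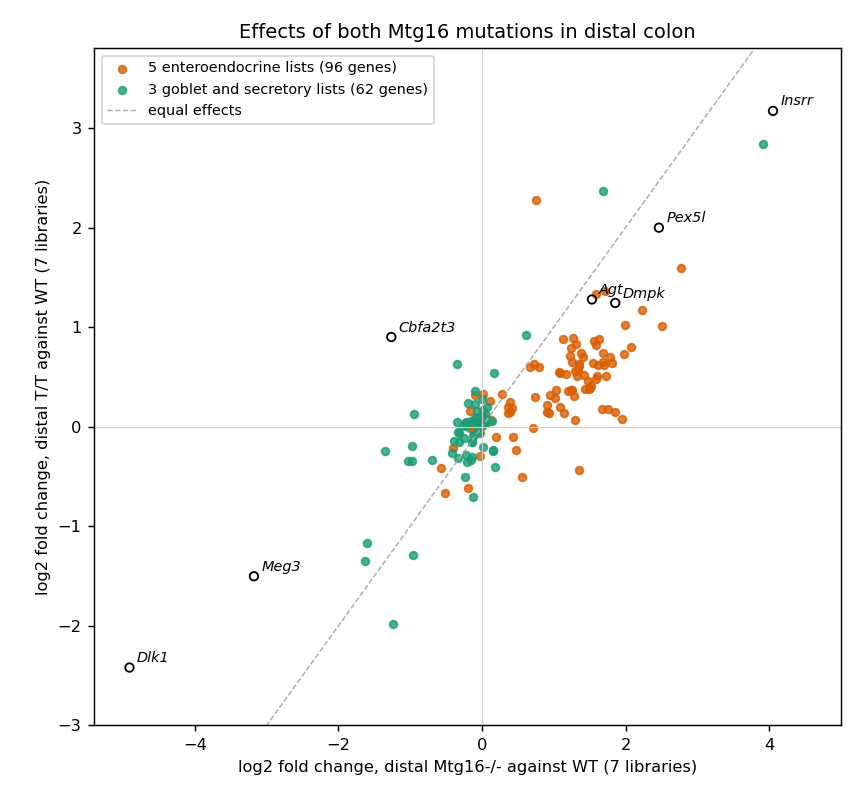
Differences on the log2 scale in distal Mtg16-/- colon (7 libraries, x axis) and distal T/T colon (7 libraries, y axis), each against its own WT. Orange points are the tested genes of the 5 enteroendocrine lists, green points those of the 3 goblet and secretory lists, open circles are 7 named genes, and the dashed line marks equal effects. Cbfa2t3 lies at -1.263 on the x axis and 0.90 on the y axis.

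In proximal colon, 2 Mtg16-/- and 2 WT libraries of request 4149 formed a table of their own. The proximal medians were 0.49 for enteroendocrine transcription factors, 0.70 for hormones and 0.59 for granins, and -0.31 for goblet products. In the test of the distal minus the proximal difference, 2 genes were higher (0.0149%) and 1 lower (0.00745%) of 13424 with all 8 distal libraries, and 6 (0.0447%) and 1 (0.00745%) in the 7. *Insrr* differed by 2.94 ± 0.29 (adjusted p = 0.00121), and it stood at 479 to 489.5 in proximal WT and 1048 to 1308 in proximal Mtg16-/-. *Sval1*, a seminal vesicle antigen-like gene, differed by -4.58 ± 0.40 (adjusted p = 0.000409). It stood at 14557, 15254, 17974 and 18058 in WT and 12778, 4518, 15388 and 17349 in Mtg16-/- in distal colon, with the library labelled replicate 2 lowest, and at 187 to 266 in proximal WT and 3060 to 4342 in proximal Mtg16-/- libraries. *ND6*, a mitochondrially encoded subunit of complex I, differed by 1.33 ± 0.18 (adjusted p = 0.0411), and its distal levels followed the request (884 to 1036 in 5094 and 1600 to 2040 in 4149) rather than genotype, while it stood at 2613 to 3123 in proximal WT and 1050 to 1243 in proximal Mtg16-/- libraries. With the distal libraries of request 4149 alone, the request of the proximal libraries, 2 genes passed, *Sval1* and *Nxpe2*, and neither *Insrr* nor *ND6* did, and with no request term *Insrr* and *Sval1* passed and *ND6* did not. Among the 6 higher genes in the 7 libraries were *Insrr*, *ND6*, *Myrip* and *Cacna1h*. *Cacna1h* stood at 787 to 1215 in proximal WT and 428 to 678 in proximal Mtg16-/-, lower where the distal level was higher. The labels do not say whether proximal and distal libraries came from the same mice, and the test took them as independent.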

How the data were processed

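Poly(A) RNA of the 8 distal colon libraries was sequenced in paired reads by the authors, who trimmed with fastp 0.20.0, quantified transcripts with Salmon 1.3.0 against a decoy-aware GENCODE M21 index (GRCm38, mm10) and summarised them to genes. The authors deposited size-factor-scaled counts from DESeq2 1.26.0 (R 3.6.3), a normalised signal per gene and library, with each table scaled on its own libraries. Columns with the authors' own comparison statistics (fold changes, their errors and p-values) were not used, and 0 columns of per-sample values in the tables used were left aside. Dividing by the value of 1 read gave whole reads (tolerance 0.05) for 100% of values, which gave the depth per library of 35346459 to 68919445 reads.

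Groups, replicate numbers and requests came from the labels. The test was the limma 3.58.1 trend method on log2(normalised count + 1) for genes with a mean of at least 10, with request and genotype as terms, Benjamini-Hochberg adjustment over 13831 genes and a threshold of 0.05, in R 4.3.3. It was tested on simulated data with known changes. The named genes were *Cbfa2t3*, all called genes, the 5 lower genes with the smallest p without overlap and a mean of at least 50, the genes the study labelled, up to 6 members per list with a mean of at least 50, and called genes of the differences of effects, and others were named after their values were seen. Of the genes called with all 8 libraries, 1 is not reported here. The members, the lists and the tests were chosen with earlier results of these data known. Differences between tables were tested as the difference of the log2 differences over the root of the summed squared SE, with Satterthwaite degrees of freedom. The alternatives were other models (no request term, replicate block, *Xist* as a covariate), edgeR 4.0.16 and DESeq2 1.42.0 on the recovered reads, TMM scaling, other pseudocounts and filters, each request alone, and each library left out. The edgeR and DESeq2 fits of the 7 libraries, the 7-library differences between tables, library weights, the omission of replicate 2 of both genotypes and the within-request permutation were added after the data were seen. Nothing in the sources used here says that each sample of a group was a separate animal, so p-values measure only the spread between these samples. Replicate 2 of each genotype differed in sex from the rest of its group, so that spread is not wholly technical, but it may be in part. Promoters came from RefSeq on GRCm38.p6 and gene positions from GENCODE M21.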

Additional observations from a re-analysis of the deposited data

Results flagged for a closer look

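Libraries far from the rest of their group were sought by Dixon's test in 98 groups of 4 libraries, over 36 genes, marker sums and scores, and 16 were found, of which 8 were the library labelled Mtg16-/- replicate 2. Chance alone marks about 1 in 20 groups where these are independent. Here the groups share the same libraries, and some genes, such as *Insl5* and *Dlk1*, were chosen after their values were seen. That rate is therefore no measure for the 16, which are a description.

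In that library the score of distal minus proximal genes was -4.995 (others of its group 5.28 to 5.86) and the T cell marker sum 5824 (1102 to 1733). Its hormone genes were apart in both directions, with *Insl5* at 543 (7354 to 8621) and *Sct* at 1275 (283 to 327). *Neurod1* stood at 269 there (413 to 443), *Cxxc4* at 100.5 (163 to 173), *Wif1* at 196 (31.3 to 48.7) and *Dlk1* at 25.1 (5.68 to 8.18).

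In Mtg16-/- replicate 3 the plasma and B cell marker sum was 846 (502 to 554). In WT replicate 4 *Clca1* stood at 255555 (166966 to 178321) and *Ascl2* at 397 (290 to 307). WT replicate 1 was the highest of its group for *Cacna1h*, at 190 (145 to 149), and for *Chgb*, at 6345 (4857 to 5110). WT replicate 3 was the lowest for *Insrr*, at 36.9 (55.2 to 57.7), and its sum of ileal and Paneth cell markers was 3545 (445 to 753). WT replicate 2 had a smooth muscle marker sum of 218 (91.4 to 109).

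The Mtg16-/- difference was not the same in distal and proximal colon for 3 genes by the test of the difference itself with all 8 distal libraries, with values of 2.94 for *Insrr*, -4.58 for *Sval1* and 1.33 for *ND6*, distal minus proximal on the log2 scale. *Insrr* and *ND6* were not called with request 4149 alone, nor *ND6* with no request term.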

How the results depend on the processing

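The counts of genes higher and lower (8 and 0 with all 8 libraries) moved most with the library labelled Mtg16-/- replicate 2 and with the model. Leaving out each library in turn gave 1 to 99 higher and 0 to 7 lower genes, with 99 and 7 without that library, 1 and 0 without WT replicate 1, WT replicate 3, Mtg16-/- replicate 1 or Mtg16-/- replicate 4, 3 without WT replicate 2 or 4, and 5 without Mtg16-/- replicate 3. Leaving out replicate 2 of both genotypes gave 22 and 1, and weighting the libraries by their spread 195 and 31. DESeq2 on recovered reads gave 176 and 34 with the request term and 171 and 29 without, and the limma model with no request term gave 33 higher. In the 7 libraries edgeR gave 118 and 7 and DESeq2 223 and 65, and both kept all 106 genes called by limma there. Request 4149 alone gave 0 and 1, and request 5094 alone 0 and 0. TMM scaling, edgeR, other pseudocounts and filters and *Xist* as a covariate gave 6 to 11 higher and 0 lower.

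Whether the replicate numbers paired the samples could not be decided, and the main fit did not pair them. Deviations from the group means correlated at 0.323, 0.0794, 0.449 and 0.0635 for replicates 1 to 4, not all over 0.1. The value for replicate 2 includes the library with proximal levels, and replicate 2 of both genotypes shared a sex unlike the rest. The fit with a replicate block called 1 gene higher. In the 7 libraries the Mtg16-/- minus T/T difference called 2 genes and the distal minus proximal difference 7.

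Among the 36 genes followed over every alternative the sign turned for *Ascl2* (0.0175 with request 5094 alone), *Lgr5* (-0.0256 with request 4149 alone), *Insl5* (-0.59 with request 5094 alone, and -0.49 to 1.07 over single libraries left out) and *Scg2* (-0.49 with request 5094 alone, and -0.0147 to 1.59), and 5094 alone is the request with the library labelled replicate 2. Genes outside these 36 were not all followed, and among them the sign also turned for *Atp12a*, *Dclk1*, *Hoxb6*, *Hoxb13*, *Hoxd13*, *ND6*, *Ppy*, *Reg3b*, *Spdef*, *Tcf4* and *Tcf12*, none of which passed with all 8 libraries. The cause was not tested.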

Other observations

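Genes in no list also passed in the 7 libraries, and were chosen after their values were seen. *Spon2*, a secreted matrix protein gene, stood at 135, 98.4, 132 and 119 in WT and 1209, 81.6, 758 and 1414 in Mtg16-/- (3.18 ± 0.24 in the 7, adjusted p = 0.00599, and 2.24 ± 0.80 with all 8, adjusted p = 0.781), and in the library labelled replicate 2 it was below every WT library. *Avpr1b*, a vasopressin receptor, stood at 142, 153, 156 and 134 in WT and 449.7, 54.4, 406 and 466 in Mtg16-/- (1.59 ± 0.14 in the 7, adjusted p = 0.00743, and 0.84 ± 0.63 with all 8, adjusted p = 0.991). *Gnao1*, a G protein alpha subunit of neurons and endocrine cells, stood at 118, 115, 93.9 and 146 in WT and 292, 417, 311 and 357 in Mtg16-/-, above WT in all 4 Mtg16-/- libraries (1.54 ± 0.19, adjusted p = 0.0509 with all 8).

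*Pamr1*, a secreted protease-like gene, stood at 90.5, 70.6, 70.6 and 61.4 in WT and 448, 13.6, 249 and 634 in Mtg16-/- in distal colon, at 28.4 to 41.8 in WT and 159 to 269 in T/T libraries of the second colony, and at 15.7 to 15.97 in proximal Mtg16-/- libraries, beside 13.6 in the library labelled distal replicate 2. The 3 other Mtg16-/- libraries were above every WT library.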
